A study of Mus musculus with 17 samples.

Results

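The genes Tet1, Tet2 and Tet3 were examined in mouse embryonic stem cells of the 129 strain that carried Sirt6 (WT) or had it knocked out (KO), untreated or, for the histone marks only, also after 2 days of retinoic acid (RA). Each gene was taken as a stated interval of build mm9 with 20 kb added on each side, and every deposited peak or window that shared 1 bp or more with these loci was listed. The 3 loci cover 376.0 kb and held 10 of the 14510 peaks of the WT Sirt6 list. They held 0 of the 21442 peaks in the 8 lists for acetylated lysine 9 or 56 of histone H3 (H3K9ac, H3K56ac; 4 lists from untreated and 4 from RA-treated cells), and 0 of the 3780 windows listed for a KO to WT difference in 5-hydroxymethylcytosine.

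The Tet enzymes are dioxygenases that oxidise 5-methylcytosine in DNA to 5-hydroxymethylcytosine (5hmC) and further products, a route by which DNA methylation is removed. Tet1 and Tet2 are the members mainly expressed in mouse embryonic stem cells, and Tet3 is known for its role in the zygote and in neurons. Tet1 and Tet3 proteins can carry a CXXC zinc finger that binds CpG-containing DNA, whereas Tet2 lacks one. Sirt6 is a NAD-dependent deacetylase of H3K9ac and H3K56ac and is generally described as a repressor at its target promoters. No measurement of Tet mRNA or protein was part of the files used here.

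Chromatin immunoprecipitation with sequencing (ChIP-seq) was used for Sirt6 in untreated WT cells (1 library), for Sirt6 in untreated KO cells with a lower and a higher amount of antibody (1 library each), and for both acetyl marks in WT and KO cells, either untreated or after RA, which induces differentiation (8 libraries). The cells had been kept on irradiated fibroblast feeders with the cytokine LIF, and the feeders were removed by plating. The number of lines or clones behind each genotype is not stated in the labels, and cell identity could not be checked against markers because the files hold no expression values. RA treatment was in medium without LIF, so RA and LIF withdrawal cannot be told apart. 5hmC was mapped by CMS-IP, an antibody capture of bisulfite-treated DNA, in WT and KO cells grown in ES medium, with an IP and an input library each. Every group held 1 library. Differences between genotypes or treatments therefore have no replicate check and none was tested, and intervals cover counting error only.

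The Tet1 interval was chr10:62267000-62343000, the Tet2 interval chr3:133126000-133208000 and the Tet3 interval chr6:83312000-83410000, with ends stated as multiples of 1000 bp. Summit distances are measured from these stated ends, which may differ from the true ends of the genes. RefSeq places all 3 genes on the minus strand, so the 5′ end of each is the end with the higher coordinate. The RefSeq models in build GRCm38 measure 82900 bp for Tet1, 81460 bp for Tet2 and 94836 bp for Tet3, against intervals of 76001, 82001 and 98001 bp. The Tet1 interval is thus shorter than the RefSeq gene. A peak a few kb beyond its 5′ end may or may not lie within the gene, and this was not settled here, since no mm9 annotation was used. For the same reason exons and introns under the peaks were not analysed here.

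The 250 bases before the transcription start that RefSeq gives for each gene are shown because the Sirt6 peaks with the highest fold lay near the 5′ ends. They come from GRCm38.p6, minus strand, read 5′ to 3′, at chr10:62887325-62887574 for Tet1, chr3:133544391-133544640 for Tet2 and chr6:83441679-83441928 for Tet3. These positions belong to another build than the peaks and were not converted. CpG dinucleotides are in capitals.
Tet1: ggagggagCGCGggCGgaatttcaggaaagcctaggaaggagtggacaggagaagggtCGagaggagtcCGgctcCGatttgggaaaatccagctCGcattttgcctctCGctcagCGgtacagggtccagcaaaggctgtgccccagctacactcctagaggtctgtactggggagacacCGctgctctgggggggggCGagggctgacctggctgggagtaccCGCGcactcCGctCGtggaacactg
Tet2: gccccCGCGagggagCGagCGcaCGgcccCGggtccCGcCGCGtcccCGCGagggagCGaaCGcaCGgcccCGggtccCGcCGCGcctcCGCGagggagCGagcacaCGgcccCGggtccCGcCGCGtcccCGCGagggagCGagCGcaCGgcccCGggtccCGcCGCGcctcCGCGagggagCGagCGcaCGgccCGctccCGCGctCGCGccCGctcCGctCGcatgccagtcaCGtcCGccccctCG
Tet3: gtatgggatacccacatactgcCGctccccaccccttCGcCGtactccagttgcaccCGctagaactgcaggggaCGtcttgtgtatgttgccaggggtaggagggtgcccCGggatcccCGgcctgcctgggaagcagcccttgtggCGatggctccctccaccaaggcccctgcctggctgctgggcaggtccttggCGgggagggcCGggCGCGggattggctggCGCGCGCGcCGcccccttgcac

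The Tet2 stretch stood apart from the others in CpG content. It held 51 CpG in 250 bases, a number reached by 0.067% of the 32851 promoters in the same RefSeq table, whose median was 6. The Tet1 stretch held 15 CpG and the Tet3 stretch 17, numbers reached by 27.3% and 23.5% of promoters. The G and C content was 83.6% for Tet2, 62.8% for Tet1 and 69.6% for Tet3, against a median of 52.4%. The Tet2 stretch also contained a tandem repeat: the 22 bases CACGGCCCCGGGTCCCGCCGCG occurred 4 times, each copy starting 42 bases after the one before. Searched on both strands, this unit was present in 1 of the 32851 promoters, that of Tet2 itself. The unit was taken from the Tet2 stretch, and an exact match of 22 bases is rare for most sequences. The count therefore does not show that the repeat is particular to Tet2.

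The start used for Tet1 lies 0.14 kb inside the 5′ end of the RefSeq gene and that for Tet2 0.75 kb inside it. That for Tet3 lies 15.53 kb inside, so the Tet3 stretch does not sit at the 5′ edge of the gene, and transcripts that start further upstream are included in the gene's extent. The Sirt6 peak in Tet3 had its summit 3.12 kb inside the 5′ end of the interval. The Tet3 stretch may therefore lie well away from that peak, and their distance was not measured across builds.

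Sirt6 peaks at the Tet genes were found near the 5′ ends and in the flanks, and the long remainder of each gene held none. Of the 10 peaks, 4 lay in a gene interval (3 at Tet2 and 1 at Tet3), 3 in the 5′ flank, all at Tet1, and 3 in the 3′ flank (2 at Tet1 and 1 at Tet3). The summits of 6 of the 10 lay within 10 kb of the 5′ end of an interval, on either side of it. The map of peaks by distance shows this arrangement.

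**Figure D1:**
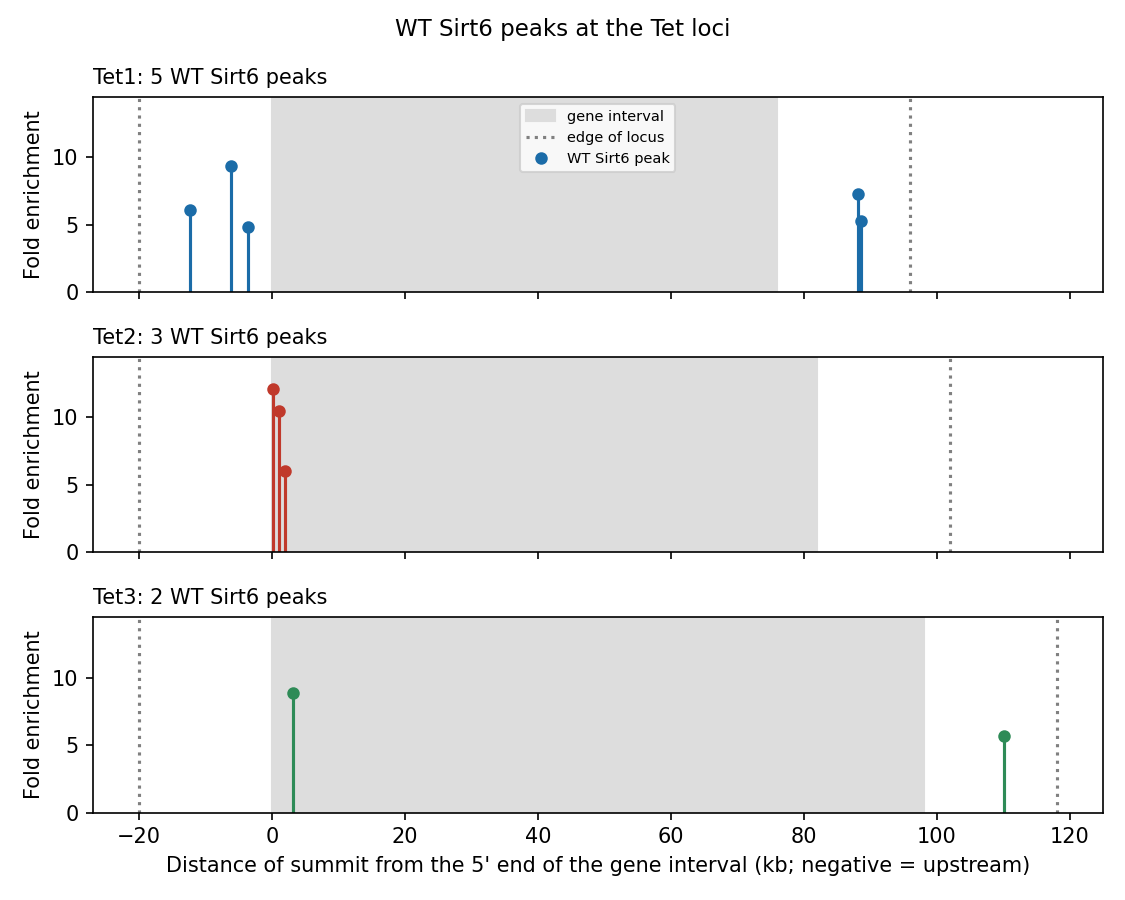
WT Sirt6 peaks at Tet1, Tet2 and Tet3: the x axis is the distance of each summit from the 5′ end of the gene interval in kb (negative is upstream), the y axis the authors' fold enrichment, grey the gene interval and dotted lines the edges of the locus. The 3 Tet2 peaks stand within 1.98 kb of the 5′ end, the gene interval of Tet1 holds no peak, and beyond the first few kb no gene interval holds one.

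At Tet2, 3 peaks followed each other at the 5′ end. The peak chr3:133207582-133208148 had the highest fold of the 10, 12.1, with 14 fragments at its summit (exact Poisson interval 7.65 to 23.5) and a summit 0.20 kb inside the 5′ end. The next, chr3:133206498-133207231, had a fold of 10.5 from 12 fragments (6.20 to 21.0) and a summit 1.10 kb inside. The third, chr3:133205927-133206153, had a fold of 6.02 from 8 fragments (3.45 to 15.8) and a summit 1.98 kb inside. The fold thus declined from the edge of the interval inwards, but the 3 fragment counts have overlapping intervals and do not differ beyond counting error. The peaks were separated by 344 and 350 bp and spanned 2222 bp in all, and they form 1 site when peaks within 1000 bp are joined.

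At Tet1, 3 peaks lay upstream of the 5′ end of the interval and 2 beyond the 3′ end. The interval of 76001 bp is shorter than the RefSeq gene of 82900 bp. Whether the peaks a few kb upstream lie outside the gene is therefore not settled. The strongest, chr10:62348987-62349987, had a fold of 9.35 from 11 fragments (5.49 to 19.7) with its summit 6.18 kb upstream, and its length of 1001 bp was reached by 3.35% of all Sirt6 peaks. Between it and the gene interval lay chr10:62346431-62346650, with a fold of 4.85 from 5 fragments (1.62 to 11.7) at 3.56 kb upstream, the lowest fold of the 10. Further out lay chr10:62355229-62355554, with a fold of 6.09 from 9 fragments (4.12 to 17.1) at 12.34 kb upstream. The last of these counted more fragments than its fold alone shows, since its expected background, 0.642 fragments, was the highest among the 10. The 2 peaks beyond the 3′ end, chr10:62254346-62254659 and chr10:62254728-62255092, lay 68 bp apart with summits 12.55 and 12.10 kb past it. They had folds of 5.30 from 6 fragments and 7.28 from 8 fragments. In the RefSeq order of protein-coding genes the neighbour of Tet1 on the 3′ side is Ccar1 and that on the 5′ side Slc25a16; which gene these flanking peaks lie in was not analysed here.

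At Tet3, 1 peak lay in the gene and 1 beyond it. The peak chr6:83406680-83407035 had a fold of 8.86 from 11 fragments (5.49 to 19.7), with its summit 3.12 kb inside the 5′ end. The other, chr6:83299772-83300059, lay 12.10 kb past the 3′ end, on the side of Bola3, with a fold of 5.66 from 6 fragments (2.20 to 13.1). The neighbour of Tet3 on the 5′ side is Dguok. Next to the loci, the closest Sirt6 peaks left out were 35.4 kb from the Tet3 interval on the 3′ side (fold 6.47), 46.8 kb on its 5′ side (5.45) and 40.1 kb from Tet1 on the 5′ side (6.37).

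The interior of the genes formed long stretches without a Sirt6 peak. Across Tet2 the stretch ran for 231.9 kb, from a peak with a fold of 5.66 that lay 152.0 kb past the 3′ end to the first peak at the 5′ end. At Tet3 it measured 106.6 kb and at Tet1 91.3 kb, the latter including the whole gene interval. Such stretches are common in this list: 15.8%, 28.3% and 31.2% of the gaps between neighbouring Sirt6 peaks were as long or longer, and the median gap was 33.4 kb. On its 5′ side Tet2 had no further Sirt6 peak for 1270.4 kb, and the next one had a fold of 21.9. The neighbour of Tet2 on that side is Cxxc4, which encodes a CXXC protein that binds Tet2, and on the 3′ side it is Ppa2.

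The number of peaks at each locus was set against all consecutive stretches of like length. All 3 Tet loci held 1 or more WT Sirt6 peaks. So did 27.5%, 28.6% and 30.7% of tiles as long as the Tet1, Tet2 and Tet3 locus on the autosomes and X, and 25.1% of tiles of 100 kb, which are shorter than the loci. The 5 peaks at Tet1 were matched or exceeded by 2.84% of tiles as long as that locus, the 3 at Tet2 by 9.17% and the 2 at Tet3 by 18.1%. The density was 26.6 peaks per Mb over the loci (12.8 to 48.9, exact Poisson) and 5.48 over the chromosomes. Tiles include stretches without genes, and peaks that lie close together are not independent, so these shares describe the list and are no test. In addition, 7 sites were left of the 10 peaks once peaks within 1000 bp were joined, 4 at Tet1, 1 at Tet2 and 2 at Tet3.

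By strength, the Tet peaks lay mostly in the lower and middle part of the list. Their median fold was 6.68 and that of all WT Sirt6 peaks 8.08, and 4 of the 10 lay above the latter, while 5 lay below the list's first quartile of 6.47. The highest, at Tet2, was matched or exceeded by 15.5% of the list and the second at Tet2 by 26.6%. The strongest at Tet1 was matched by 34.8% and the strongest at Tet3 by 41.8%. Of the remaining 6 peaks, 1 at Tet1 had a fold that 62.4% of the list reached, and the other 5 had folds that 78.8% to 97.4% of it reached.

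**Figure D2:**
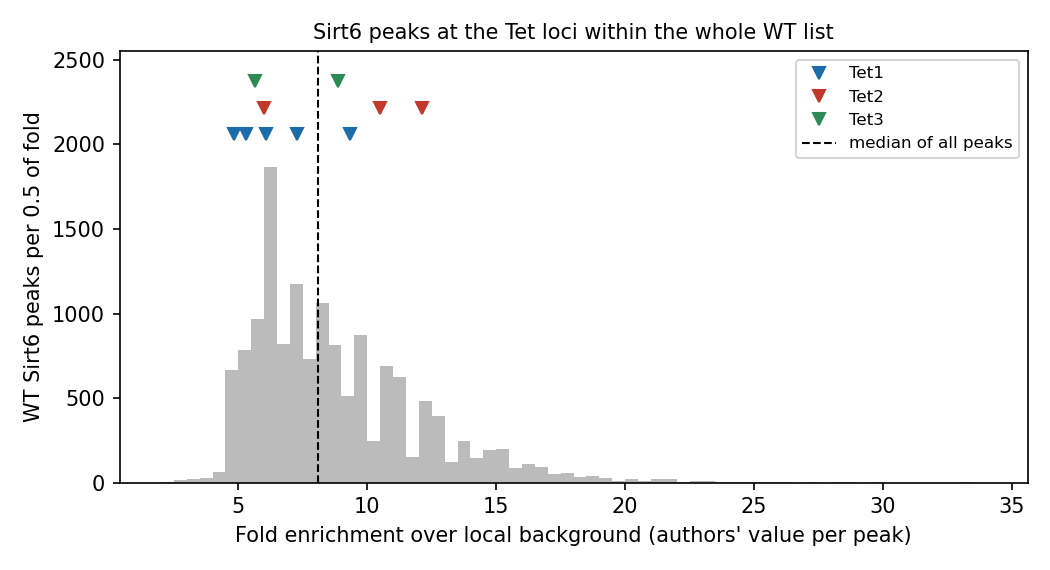
Distribution of the authors' fold enrichment over the 14510 WT Sirt6 peaks (grey; x axis fold, y axis number of peaks per bin), with triangles for the 10 peaks at the Tet loci and a dashed line at the median of 8.08. The highest triangle, Tet2 at 12.1, lies well short of the list's maximum of 33.3.

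The folds rest on few fragments, because the WT Sirt6 library held 2008232 tags after filtering. The 10 summits carried 5 to 14 fragments. The background expected at these summits was 0.237 to 0.642 fragments, as implied by the deposited fold and pileup, since the fold equals the pileup plus 1 over the background plus 1. At 5 of the 10 the background stood at the lowest value in the list, 0.237, which 39.3% of all peaks share; among those 5, fold differs through the fragment count alone. The KO libraries held 40006795 tags with less antibody and 48956556 with more, and their lists held 0 peaks anywhere, so no Sirt6 peak was called at a Tet locus in cells without Sirt6. The KO calls used a different whole-cell extract control from the WT call.

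**Figure D3:**
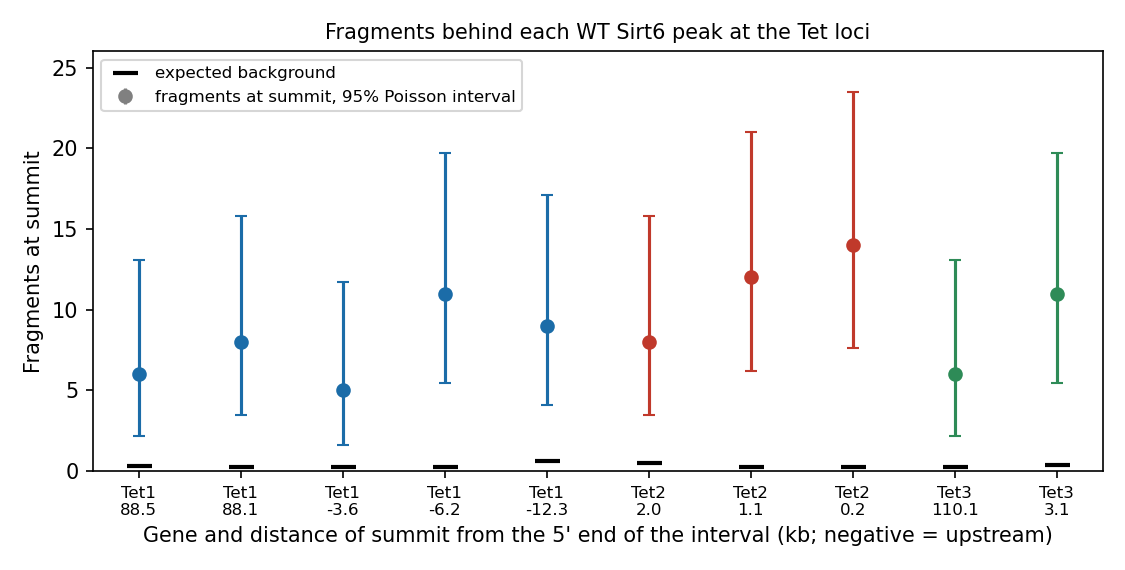
Fragments at the summit of each of the 10 WT Sirt6 peaks (points, with exact 95% Poisson intervals) and the background expected there (black dashes); the x axis gives the gene and the summit's distance from the 5′ end in kb. All intervals stay above the background, but the peaks were called for exceeding it, so this adds no support for them. The intervals of the 3 Tet2 peaks overlap each other.

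No acetylation peak was called at any Tet locus, in either genotype, with or without RA. For H3K9ac the lists held 2789 peaks in untreated WT, 3593 in untreated KO, 2626 in WT after RA and 3147 in KO after RA, with 0 at the 3 loci in each. For H3K56ac they held 2750, 2235, 2063 and 2239 peaks in the same order, again with 0. Both marks are known from active promoters, but such lists cover little of the genome. A tile of 100 kb held 1 or more H3K9ac peaks in 8.85% of cases for untreated WT, 11.8% for untreated KO, 8.48% for WT after RA and 10% for KO after RA. For H3K56ac the shares were 8.94%, 7.51%, 6.79% and 7.36%, and for any of the 8 lists 19.5%. At the lists' own density the 3 loci together would hold 2.89 acetylation peaks summed over the 8 lists, between 0.277 and 0.491 per list, and the lists share many of their regions. With less than 1 peak expected per list, a count of 0 is the likeliest in each, so these counts show no shortage. The sum of 2.89 counts shared regions repeatedly. With 3 loci alone, no difference from other stretches was tested. The lists give called peaks only, with at least 8 to 10 fragments at the summit, and the level of either mark below that limit was not measured here.

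The 10 Sirt6 peaks themselves overlapped 0 acetylation peaks of any list, which allows a share of up to 30.0% if the peaks are independent. They form only 7 sites when joined within 1000 bp, so the true limit is higher. Over the whole WT Sirt6 list the share was 11.9%, or 1721 peaks, so 10 peaks are too few to show a difference from it. The list that reached the most Sirt6 peaks, untreated KO H3K9ac, overlapped 9.30% of them. It overlapped 6.98% of those with a fold no higher than the highest at the Tet loci. No gain of acetylation in KO cells was detectable at the Tet peaks at this depth.

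The acetylation peaks nearest to the genes lay outside the loci, and which list came nearest differed by gene. Near Tet3, untreated KO cells had an H3K9ac peak at chr6:83267296-83267509, 44.5 kb past the 3′ end of the interval, with a fold of 6.24, a pileup of 16 fragments and a −log10 q of 7.48. It lay within the WT Sirt6 peak chr6:83267127-83267537, whose fold of 16.4 was reached by 3.11% of the list and exceeded that of all 10 peaks at the Tet loci. None of the other 7 acetylation lists had a peak on that Sirt6 peak, and in all of them the nearest peak to Tet3 was 1014.3 kb away. Over the whole WT Sirt6 list, untreated KO H3K9ac overlapped 9.30% of peaks and the other lists 1.03% to 4.03%. A Sirt6 peak with a call in the untreated KO H3K9ac list is thus not particular to Tet3. How many Sirt6 peaks had a call in that list alone was not counted here. With a flank of 50 kb the H3K9ac peak near Tet3 would be the single acetylation peak at the Tet genes. It fails the stricter −log10 q limit of 10, and which gene it belongs to was not analysed here.

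Near Tet1 all 8 lists had their nearest peak at the same place, between 62075395 and 62075757 on chromosome 10, 191.2 to 191.4 kb past the 3′ end. Its fold was 14.7 in untreated WT and 10.0 in untreated KO for H3K9ac, and 13.7 and 7.55 for H3K56ac. After RA it was 11.2 in WT and 11.6 in KO for H3K9ac, and 12.9 and 9.99 for H3K56ac. The untreated KO libraries gave the lower value for both marks, with no replicate to judge it. The whole untreated lists differed the same way. Their median fold was 8.24 in KO and 11.8 in WT for H3K9ac, and 10.0 and 11.3 for H3K56ac. The lower KO value is thus not particular to this place. None of the peaks nearest to Tet1 overlapped a Sirt6 peak. The acetylation calls used no control library, so the signal at this shared place was not set against a control.

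Around Tet2 the nearest acetylation peak differed between lists. The closest, for untreated WT H3K9ac, lay 210.7 kb past the 3′ end with a fold of 8.44. That of untreated WT H3K56ac, chr3:133521933-133522154, lay 313.9 kb from the 5′ end with a fold of 11.4. In untreated KO the nearest H3K9ac peak lay 371.6 kb past the 3′ end with a fold of 6.08, and it overlapped a Sirt6 peak. Untreated KO H3K56ac had its nearest peak 1270.4 kb away on the 5′ side, with a fold of 21.5, on the same strong Sirt6 peak that ends the empty stretch upstream of Tet2. After RA the nearest peaks of KO H3K9ac and of both H3K56ac lists lay 941.5 to 941.6 kb past the 3′ end, and that of WT H3K9ac lay 314.0 kb from the 5′ end.

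**Figure D4:**
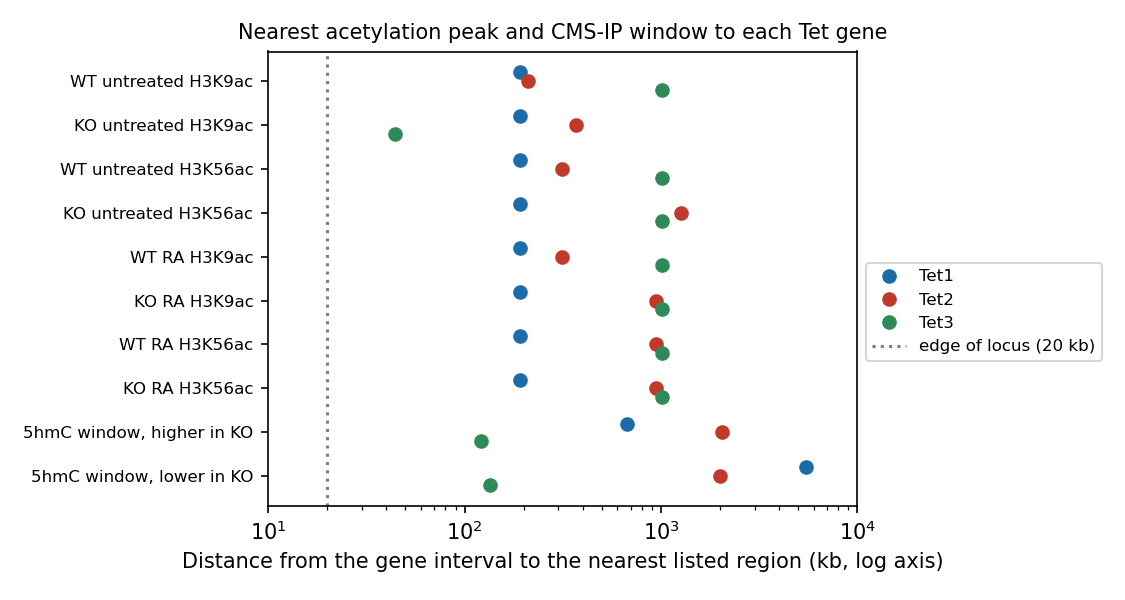
Distance from each Tet gene interval to the nearest peak of each acetylation list and to the nearest CMS-IP window of each direction (x axis in kb, logarithmic; 1 row per list, 1 colour per gene; dotted line at the 20 kb edge of the locus). No point lies left of the dotted line, and the point nearest to it is the untreated KO H3K9ac peak 44.5 kb from Tet3.

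No 5hmC window that the authors listed lay at a Tet locus. The loci overlap 755 windows of 500 bp. If all of these were tested and independent, 0 listed windows would allow a share of up to 0.397%. With fewer tested or neighbouring windows alike, the limit is higher. Of the 3084167 windows that the authors' adjustment implies were tested, 0.0719% were listed as higher in KO and 0.0506% as lower. Together this was 0.123%, not far above the share that a limit of p under 0.001 lists when nothing differs. The p-values also rest on 1 library per group. At the listed rate, 0.925 windows would fall into the loci if every window there had been tested. How many were tested there was not analysed here, since the deposited table lists only windows with p under 0.001. An equal or different 5hmC level at the Tet genes can be read from neither the table nor its gaps.

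The closest listed windows were at Tet3, on its 3′ side, and they went in opposite directions. In the window chr6:83190001-83190500, 121.5 kb past the interval, the KO IP held 72 reads and the WT IP 46 (RPKM 12.6 and 6.84), and the inputs held 26 and 20 reads (RPKM 2.17 and 2.41). The authors' deposited table gave it a log2 fold change of 0.89. In the window chr6:83176501-83177000, 135.0 kb past the interval, the KO IP held 1 read and the WT IP 15, and the inputs held 2 and 7. KO was thus lower in the input as well in this second window, with RPKM of 0.167 against 0.842 in the inputs beside 0.175 against 2.23 in the IP. Both had an adjusted p of 1 in the authors' deposited table.

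For the other genes the listed windows were further away. The nearest to Tet1 lay 674.0 kb past the 3′ end, higher in KO, with 44 KO and 18 WT IP reads beside 27 and 14 input reads. The nearest one lower in KO lay 5465.5 kb away on the 5′ side, with 8 KO and 46 WT IP reads beside 12 and 13 input reads. Tet2 had its nearest windows 2009.0 kb away on the 5′ side, lower in KO (39 and 111 IP reads, 14 and 10 input reads), and 2058.0 kb away on the 3′ side, higher in KO (16 and 1 IP reads, 13 and 9 input reads). These windows also had an adjusted p of 1 in the authors' deposited table, and at such distances they are no measurement of the Tet genes.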

How the data were processed

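The members and the lists used here were chosen with earlier results of these data known. The submitters' processing notes name BWA 0.5.9, Picard and MACS2 2.0.10 for the ChIP-seq libraries, edgeR for CMS-IP and build mm9 for both. Per the file headers, the peak caller ran on each library alone with a q cutoff of 0.01, against whole-cell extract for Sirt6 and with no control for the acetylation marks. The deposited lists give the pileup signal at the summit, −log10 p and −log10 q values, and a fold ratio over local background, all made by the authors. Filtered tags numbered 5782181 to 10250030 in the acetylation libraries. For CMS-IP the authors deposited read counts and RPKM per 500 bp window, with edgeR's log2 fold change, p-value and adjusted p-value, and no CMS-IP aligner is named in these sources. Counts and RPKM imply libraries of 11413874 (KO) and 13451714 (WT) reads for the IP, and 23924232 and 16623305 for the inputs. 

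The intervals were read as the gene itself and 20 kb was added on each side. Every peak and window overlapping a locus is named, and otherwise the nearest one of each list is given by its position or distance. Tiles ran from the start of each chromosome to its last listed feature. Fragment counts carry exact 95% Poisson intervals, and limits for a count of 0 rest on 3 counts. The relation of fold, pileup and background was checked by recomputing the Poisson −log10 p, which fell within 0.01 of the deposited value for 100.0% of the Sirt6 peaks. Promoter sequences and gene lengths came from RefSeq (GRCm38.p6), where 3 of 3 genes matched. Other genes of the 5hmC pathway were not analysed here, for want of mm9 gene positions. Steps were tested on simulated data. Alternatives were a stricter q limit, other flanks, summits, lists of equal length and an adjusted p limit. Joined peaks and tiles as long as each locus were added after seeing the data. Tools were matplotlib 3.10.9, scipy 1.17.1, pandas 2.3.3 and numpy 2.4.6 under Python 3.11.15.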

Additional observations from a re-analysis of the deposited data

How the results depend on the processing

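The 10 WT Sirt6 peaks at the Tet loci became 4 with a −log10 q of at least 10 (1 at Tet1, 2 at Tet2, 1 at Tet3), 4 in the gene intervals with no flank (0, 3 and 1), and 17 with a flank of 50 kb (7, 3 and 7). They stayed 10 when the summit had to lie in the locus. The count at Tet2 was 2 or 3 in all of these and 1 when peaks within 1000 bp were joined, so it rests least on the flank. The 0 acetylation peaks became 1 with a flank of 50 kb, the untreated KO H3K9ac peak near Tet3. The 0 listed CMS-IP windows stayed 0 with 50 kb. For both, the other alternatives only remove peaks, windows or flanks, so their 0 was fixed in advance and shows nothing of stability. The planned KO to WT read ratios were not run, since no listed window lay at a locus. No paired analysis was possible because each group held 1 library. Depth limits the Sirt6 folds, at 5 to 14 fragments a peak.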
